A study of Mus musculus with 16 samples.

Results

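Binding of the RNA export factor THOC5 was compared between primary mouse vascular smooth muscle cells in osteogenic medium (Pi) and the same wild-type cells in growth medium (Ctrl). RNA recovered with THOC5 by immunoprecipitation was sequenced, and the deposited lists of peaks, the places where reads pile up along the genome, are analysed here. The comparison rests on 4 of the 16 samples, namely Ctrl 1, Ctrl 2, Pi 1 and Pi 2, which carry no vector. Their 13857 peaks were merged into 8590 sites wherever peaks overlapped by at least 1 base, out of 28998 peaks and 12362 sites over all 8 immunoprecipitates. The other 4 immunoprecipitates come from cells in osteogenic medium that overexpressed GFP (GFP OE) or THOC5 (THOC5 OE), and serve here only to show whether a site recurs. The 8 input samples were not analysed here. Age, strain and sex of the mice, the time in medium and the way the vector was delivered are not given for these samples in the sources used here. Since no label states that same-condition samples were cultured separately, p-values measure only the spread between these samples, which may be technical.

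THOC5 belongs to the THO complex, which is loaded onto RNA as it is transcribed and, within the larger TREX complex, helps mature mRNA leave the nucleus. Smooth muscle cells of arteries normally express a contractile programme of actin, myosin and their regulators. High phosphate, as in kidney disease, moves cultured cells towards a bone-like state in which transcription factors such as Runx2 act and mineral is laid down in the wall. The question of the comparison is which transcripts THOC5 holds before and after that change of medium.

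A few sites of one condition lie over or near a RefSeq start of a gene, or over a microRNA. These are shown first, since their sequences were at hand. Each promoter window runs from 250 bases before to 30 bases after a RefSeq start (build GRCm38.p6, 5′ to 3′ on the strand of the gene). Capitals mark the bases inside the peaks of both lists that have the site. A gene can have several starts, so bases before the one used may belong to another of its transcripts. Whether they do, and so whether a peak there lies on RNA of the gene, was not tested. Maml2 (chr9:13297708-13297987, plus strand) and Ptchd4 (chr17:42316350-42316629, plus strand) belong to Pi-only sites, meaning sites with a peak in Pi 1 and Pi 2 and none in Ctrl 1 or Ctrl 2, and Zcchc14 (chr8:121651904-121652183, minus strand) to a Ctrl-only site, the reverse. The last is the mature microRNA under a site of both Ctrl lists (chr12:75909154-75909175, plus strand), with its seed, bases 2 to 8, in capitals.
Maml2: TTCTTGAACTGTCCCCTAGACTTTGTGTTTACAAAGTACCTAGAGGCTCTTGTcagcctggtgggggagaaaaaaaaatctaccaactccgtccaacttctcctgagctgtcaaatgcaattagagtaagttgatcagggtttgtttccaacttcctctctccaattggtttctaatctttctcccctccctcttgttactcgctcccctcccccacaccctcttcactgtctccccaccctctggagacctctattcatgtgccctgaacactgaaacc
Ptchd4: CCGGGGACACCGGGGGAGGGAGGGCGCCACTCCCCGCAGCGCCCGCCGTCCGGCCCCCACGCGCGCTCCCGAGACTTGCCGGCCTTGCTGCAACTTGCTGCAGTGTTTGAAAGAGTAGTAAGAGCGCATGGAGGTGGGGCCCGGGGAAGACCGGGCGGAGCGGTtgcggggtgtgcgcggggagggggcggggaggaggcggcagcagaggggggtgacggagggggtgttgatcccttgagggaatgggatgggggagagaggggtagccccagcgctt
Zcchc14: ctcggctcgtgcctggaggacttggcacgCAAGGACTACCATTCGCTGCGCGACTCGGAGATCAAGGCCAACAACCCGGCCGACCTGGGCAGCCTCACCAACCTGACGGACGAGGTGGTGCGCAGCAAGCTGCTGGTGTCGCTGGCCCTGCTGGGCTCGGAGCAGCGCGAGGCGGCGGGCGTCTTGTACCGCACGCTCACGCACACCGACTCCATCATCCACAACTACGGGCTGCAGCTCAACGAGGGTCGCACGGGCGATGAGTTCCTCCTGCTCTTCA
mmu-miR-5101: uUUGUUUGuuuugcugaugcag

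The Maml2 site was among the strongest of its kind, at percentiles 96.8 and 96.1 by peak score in Pi 1 and Pi 2 (a percentile is the rank of a peak's score within its own list, 100 being the strongest). Maml2 encodes a coactivator of Notch signalling. The deposited annotation calls the site intergenic, and 53 bases of the window, at its far end from the start, lay inside both peaks. It recurred in GFP OE 2 and THOC5 OE 2. Maml2 also held a Ctrl-only site, in exon 1 of 4 (chr9:13620161-13620604), at 91.6 and 94.6 in Ctrl 1 and Ctrl 2. That site was in 3 vector lists. By these coordinates exon 1 of that transcript lies far downstream of the start used for the window. The Pi-only site is thus not at the start of the transcript that the annotation names for Maml2. Peaks annotated to Maml2 numbered 1, 1, 0 and 1 in Ctrl 1, Ctrl 2, Pi 1 and Pi 2, so the gene was not bound in Pi alone. The Ptchd4 site was weak, at percentiles 15.0 and 17.5, and 164 bases of the window lay inside both peaks. The Zcchc14 site reached 55.8 and 73.3 in the Ctrl lists, covered 251 bases of its window and was in no vector list. GGGCGG or its reverse complement CCGCCC, the core of a GC box, occurs 2 times in the Ptchd4 window, 1 of them inside both peaks, and not in the others; 34.7% of 32851 RefSeq promoter windows of the same length hold it. CCAAT or ATTGG occurs 2 times in the Maml2 window, as 2 overlapping matches on opposite strands, and not in the others (36.1% of all windows). TATAAA or TTTATA was in none of the 3 (13.1% of all windows). The Mir5101 site (chr12:75909007-75909459) lies within the nesprin gene Syne2, reached percentiles 86.6 and 89.9 in Ctrl 1 and Ctrl 2, and was in no vector list. A match is a description of letters, and the peaks carry no strand.

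The 4 lists differed in length and in grain, and this touches every count that follows. Ctrl 1 held 2603 peaks, Ctrl 2 4795, Pi 1 2666 and Pi 2 3793, and each list has 1 peak width, from 415 bp in Ctrl 2 to 553 bp in Pi 1. Low scores rise in whole steps of 0.726 and 0.758 in Ctrl 1 and Ctrl 2, and of 1.58 and 1.14 in Pi 1 and Pi 2. The weakest peak of a list stands at 40 and 21 steps in Ctrl and at 13 steps in both Pi lists. The Ctrl lists are thus finer in their steps than the Pi lists. Steps of the 4 vector lists were finer still, from 0.282 in GFP OE 1 to 0.35 in GFP OE 2. The part of these differences in the results was not tested. Markers of vascular smooth muscle had a peak in 5 of 8 cases, led by Mylk with 6, 11, 7 and 7 peaks in Ctrl 1, Ctrl 2, Pi 1 and Pi 2. The defining markers Myh11, Cnn1 and Des had no peak. Of 15 markers of endothelium, fibroblasts and leukocytes 1 had a peak, Pdgfra in Pi 1. A peak needs both a transcript and its recovery with THOC5, so more transcript per cell, more cells with it and more binding per transcript cannot be told apart.

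Pi 1 stood apart from the other 3 lists. With all lists cut to the 2603 strongest peaks, Ctrl 1 and Ctrl 2 shared 50% of their sites (1302). Pi 1 and Pi 2 shared 36.7% (954). Pi 2 shared more with Ctrl 2 (47.4%, 1234 sites) and with Ctrl 1 (44.8%, 1167 sites) than with the other Pi list. Pi 1 shared 35.3% with Ctrl 1 (918 sites) and 33.8% with Ctrl 2 (880 sites). The 2 lists of osteogenic medium were therefore less alike than either Ctrl list was to Pi 2, and a site called in both Pi lists has to be in the list that stands apart.

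More sites were set apart by growth medium than by osteogenic medium. Ctrl-only sites numbered 404 (4.7% of 8590), Pi-only sites 217 (2.53%), and 546 (6.36%) were in all 4 lists. With peaks on rRNA repeats dropped, the same counts were 404 (4.72% of 8561), 200 (2.34%) and 546 (6.38%). With lists cut to equal length they were 334 (5.4% of 6184), 192 (3.1%) and 497 (8.04%), and with both steps 334 (5.39% of 6191), 179 (2.89%) and 497 (8.03%). Under a common floor at score 29.0, the highest of the lists' weakest scores, they were 401 and 184, with 538 in all 4 lists. The order of the counts was thus the same before and after each of these steps. With 2 lists a side no test of such a count was made, and the smallest two-sided p that an exact permutation of 2 lists against 2 can give is 0.333. Without 1 list the rule asks for fewer lists and gives more sites by construction. Sites of Pi then numbered 331 without Ctrl 1, 449 without Ctrl 2, 1711 without Pi 1 and 1240 without Pi 2. Sites of Ctrl numbered 2563, 1091, 558 and 824 in the same order, so the condition that lost a list had the larger count.

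**Figure D1:**
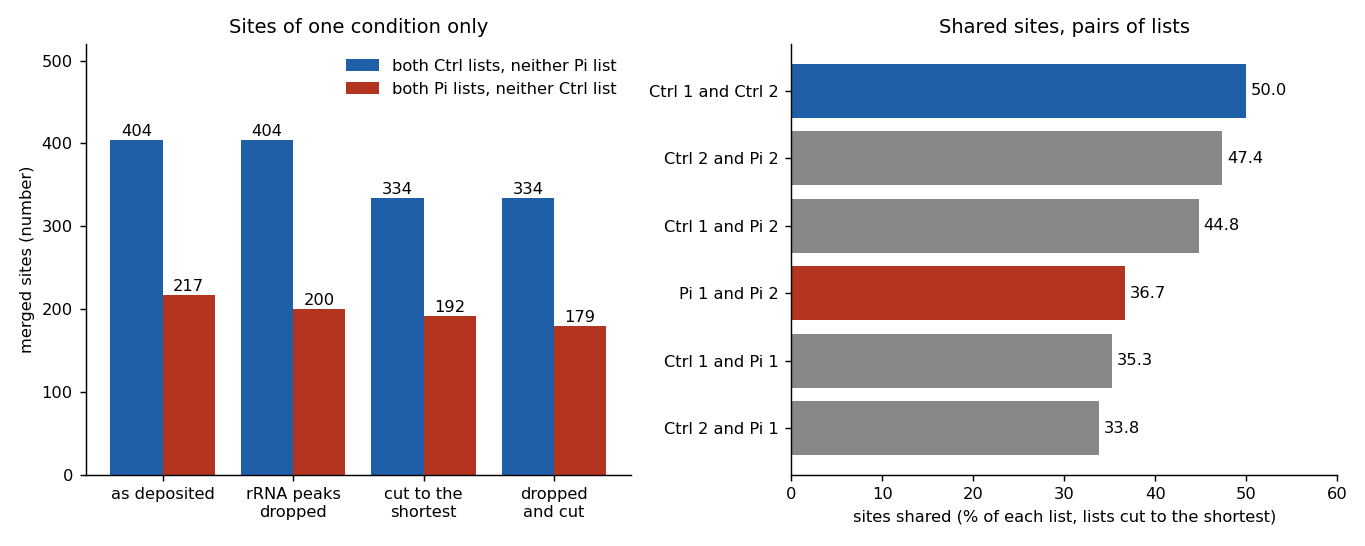
Left, number of Ctrl-only (blue) and Pi-only (red) merged sites, each in both lists of its condition and absent from both of the other, for the lists as deposited and after dropping rRNA peaks, cutting to the shortest list, or both; Ctrl has more in each of the 4 (404 against 217 as deposited). Right, share of sites that each pair of equally long lists has in common, in percent, with the Ctrl pair in blue, the Pi pair in red and mixed pairs in grey; the Ctrl pair is highest at 50% and the 3 pairs with Pi 1 are lowest.

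The leading sites of osteogenic medium inside genes lay in Jmjd1c, Kank1 and Arid2. From here on rRNA peaks are left out. The ranking passes over sites that the annotation gives to no gene. The intergenic site by the far upstream Maml2 start (96.8 and 96.1), which would stand between Kank1 and Arid2, is therefore not among the 12. Jmjd1c, a member of a family of histone demethylases, led with a site in exon 9 of 25 (chr10:67225529-67226354) at percentiles 96.8 and 97.3 in Pi 1 and Pi 2, and this site was in all 4 vector lists. Kank1, an adaptor that joins focal adhesions to the cell cortex, followed in exon 5 of 13 (chr19:25410429-25411316) at 96.2 and 96.8, with 1 vector list. Arid2, a subunit of the PBAF chromatin remodelling complex, had its site in exon 15 of 21 (chr15:96370154-96370724) at 95.8 and 96.0, with no vector list. These 3 sites stood in the top 5% of both Pi lists and had no overlapping Ctrl peak. Bptf, the large subunit of the NURF remodelling complex, reached 93.7 and 95.0 in exon 21 of 28, and Myo18a, an unconventional myosin, 93.8 and 93.1 in intron 4 of 40. Col4a6, a collagen chain of basement membrane, reached 92.6 and 92.9 in intron 21 of 44, and Qrich1 92.7 and 90.4 in exon 4 of 11. The other 5 of the 12 lay in Mycbp2, Dst, Ankrd17, Herc2 and Thoc2, with lower percentiles from 86.9 to 89.1. Thoc2 encodes the largest subunit of the THO complex itself, and its site in intron 32 of 38 (chrX:41813575-41814185; 87.1 and 86.9) was in all 4 vector lists.

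The leading sites of growth medium stood higher in their lists. They are the first 12 from 404 Ctrl-only sites, against the first 12 from 200 Pi-only sites. The part of this difference in number was not tested. The protocadherin gene Fat1 had the strongest, in exon 1 of 26 (chr8:44950413-44950856), at percentile 100 in both Ctrl lists, with no peak there in Pi 1 or Pi 2 and a peak in 1 vector list. Ogt, the enzyme that puts O-GlcNAc on nuclear and cytoplasmic proteins, had its site in exon 17 of 22 (chrX:101673218-101673661) at 99.3 and 99.6, with 3 vector lists. Phldb2, which anchors microtubules at the cell cortex, had one in exon 3 of 19 (chr16:45808223-45808666) at 98.9 and 99.2, with no vector list. All 3 genes kept a peak elsewhere in both Pi lists, so the place and not the gene was missing there. A site named for Mir6948 (chr14:54642391-54642845; 98.5 and 99.0), which lies inside Acin1, was in all 4 vector lists. The histone methyltransferase gene Nsd1 had a site in exon 5 of 23 at 97.7 and 98.6, and Tsc22d2 one in exon 1 of 3 at 97.3 and 97.9. The ubiquitin ligase gene Huwe1 had one in the 3′ UTR at 96.9 and 98.0. The other 5 of the 12 lay in Setbp1, Syne1, Jmjd1c, Utrn and Sf3b1, with lower percentiles from 95.5 to 96.4. With lists cut to equal length the first 6 sites were Jmjd1c, Kank1, Arid2, Bptf, Myo18a and Col4a6 in Pi, and Fat1, Ogt, Phldb2, Mir6948, Nsd1 and Huwe1 in Ctrl.

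Jmjd1c was among the leading sites of both conditions. Its Ctrl site (chr10:67224912-67225387; 96.3 and 96.8 in Ctrl 1 and Ctrl 2) and its Pi site lie in the same exon 9, with 142 bp between the nearest peaks of the 2 conditions. The Ctrl site was in no vector list and the Pi site in all 4. Other genes of leading Pi sites also held Ctrl-only sites. Mycbp2 and Dst held 2 each, and 1 of those in Dst reached 92.9 and 95.0 in Ctrl 1 and Ctrl 2. Arid2 (exon 19 of 21, at 31.7 and 48.1), Ankrd17 (intron 9 of 33, at 81.3 and 84.5) and Thoc2 (intron 10 of 38, at 40.5 and 61.1) also did. Syne1, of the leading Ctrl genes, held 2 Pi-only sites. Near neighbours were also found at other leading sites: the nearest Ctrl peak lay 314 bp from the Myo18a site, 582 bp from that of Kank1 and 883 bp from that of Arid2, and the nearest Pi peak 343 bp from the Ctrl site of Syne1. Within 1000 bp, 4 of the 12 leading Pi sites and 2 of the 12 leading Ctrl sites had a peak of the other condition, against 12 of all 200 Pi sites (6%) and 28 of all 404 Ctrl sites (6.93%). Within 500 bp the counts over all sites were 9 and 16. When peaks up to 500 bp apart were merged, which was added after these distances were seen, 221 sites of Pi (2.65%) and 401 of Ctrl (4.81%) were set apart.

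**Figure D2:**
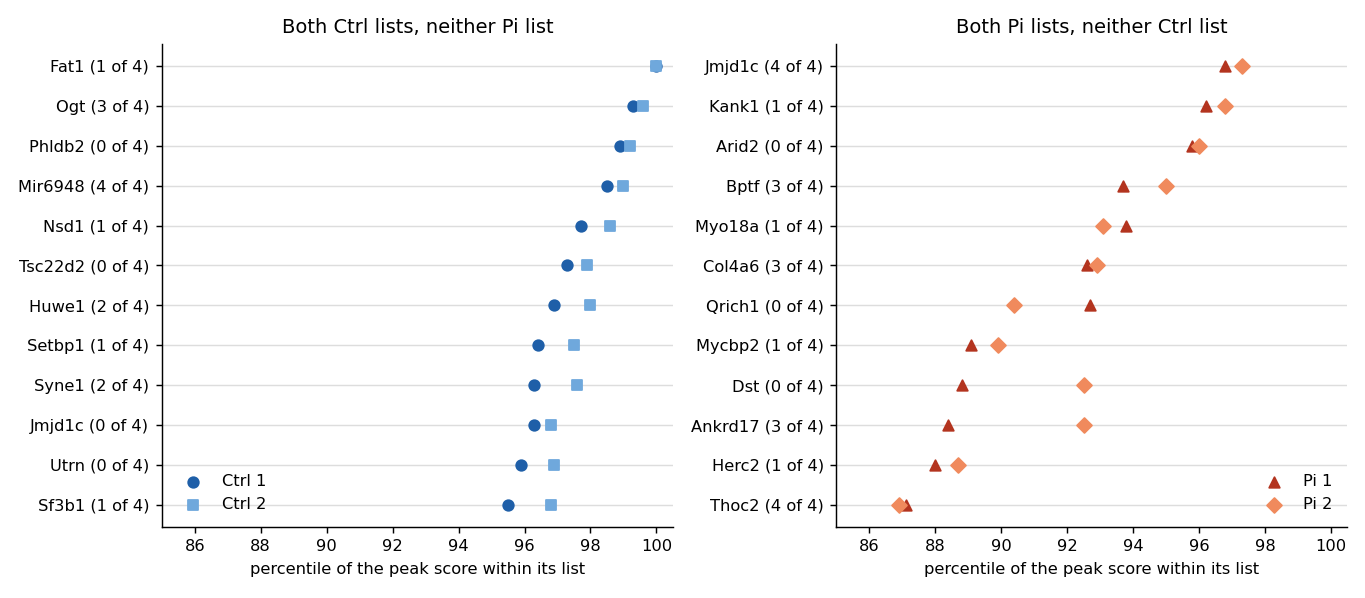
Percentile of the peak score within its list (horizontal axis) for the 12 leading sites of each condition, 1 per gene and without intergenic sites, with the number of the 4 vector lists that also have the site in parentheses. The Ctrl sites lie between 95.5 and 100 and the Pi sites between 86.9 and 97.3, taken from 404 Ctrl-only and 200 Pi-only sites. The axis starts at 85.

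As a set, the Ctrl sites were stronger in their lists than the Pi sites. The lower of the 2 percentiles had a median of 50.3 over the 404 Ctrl sites, 34.7 over the 200 Pi sites and 71.2 over the 546 sites of all 4 lists. It reached 90 in 40 Ctrl sites (9.9%), 8 Pi sites (4%) and 114 shared sites (20.9%). These are descriptions, since sites of 1 list are not replicates. Exons took 40.8% of Ctrl sites and 32.0% of Pi sites, against 31.9% of all sites, and introns 47.8% and 52.0%, against 52.8%. The last exon of a transcript took 10.4% of Ctrl sites and 14.5% of Pi sites, against 13.3%. Transposons (SINE, LINE, LTR or DNA) were the annotation's repeat in 6.19% of Ctrl sites, 4.5% of Pi sites and 5.77% of all. The annotation placed sites of both kinds in long genes, with a median gene span of 90615 bp for Ctrl and 89743 bp for Pi, against 44100 bp over all genes with a site. Sites of all 4 lists lay in still longer genes, at a median of 100709 bp.

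The vector lists, which share the osteogenic medium, held Pi and Ctrl sites in close shares, and the difference was not tested. At least 1 of the 4 held 61.0% of Pi sites (122 of 200) and 59.2% of Ctrl sites (239 of 404), against 48.2% of all sites and 93.6% of the sites of all 4 lists. All 4 vector lists held 10% of Pi sites and 8.91% of Ctrl sites. List by list the shares were 27.0% and 37.9% in GFP OE 1, 32.0% and 18.8% in GFP OE 2, 41.5% and 44.6% in THOC5 OE 1, and 38.5% and 33.7% in THOC5 OE 2, for Pi and Ctrl sites in turn. The direction thus differed between the 2 lists of each vector. The cells of the vector lists also carry a transgene, and its part in these shares was not tested.

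Most sites of 1 condition lay in genes that the other condition bound elsewhere. Of 399 Ctrl sites in a gene, 322 (80.7%) were in a gene with another peak in a Pi list, and of 188 Pi sites 126 (67.0%) were in a gene with another peak in a Ctrl list. Of the 333 genes with a Ctrl site, 57 held at least 2 Ctrl sites and 11 at least 3. Of the 186 genes with a Pi site, 9 held at least 2 Pi sites and 0 at least 3. Ctrl also had more sites to place, 404 against 200, and whether they gather more in single genes than Pi sites was not tested. Utrn, encoding the dystrophin relative utrophin, held 5 Ctrl sites and 0 Pi sites, with 26, 29, 12 and 25 peaks in Ctrl 1, Ctrl 2, Pi 1 and Pi 2. The 3-site genes were Syne1, Itpr2, Kalrn, Vps13b, Atrnl1, Brwd1, Htt, Med13l, Usp34 and Zfp638. Jmjd1c, Fndc1, Herc2, Kif13a and Vps13d were among those with 2 Pi sites.

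At the level of genes the counts of the conditions were closer. A gene counted as bound where the RefSeq transcript in the deposited annotation of a peak belonged to it. Of 3384 bound genes, 110 were Pi-only (3.25%) and 123 Ctrl-only (3.63%), by the rule used for sites. Cut to equal length the order turned, to 107 (4.16% of 2571) and 79 (3.07%). Without 1 list the counts of Pi were 161 without Ctrl 1, 292 without Ctrl 2, 599 without Pi 1 and 467 without Pi 2, and those of Ctrl 684, 287, 205 and 289. Without rRNA peaks 107 (3.17% of 3378) and 123 (3.64%) genes were set apart, and with both steps 111 (4.3% of 2580) and 79 (3.06%). All 4 lists bound 574 genes (17%), the same number without rRNA peaks, and 477 (18.6%) or 478 (18.5%) when cut to equal length, before and after dropping them. The 2 Pi lists shared a site in 61 of those 107 genes (57.0%), and the 2 Ctrl lists in 73 of those 123 (59.3%). In the other 46 and 50 genes the 2 lists of a condition had their peaks at different places of the gene. Most of these calls rest on few peaks: 87 of the 107 and 83 of the 123 genes had 1 peak in each list.

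Among osteochondrogenic genes, 2 were Pi-only, out of 4 with a peak and 34 listed, where 3.17% of all genes with a peak were. Runx2, the transcription factor that sets off bone formation, had overlapping peaks in Pi 1 and Pi 2 in a non-coding transcript, exon 1 of 6 (41.6 and 48.1). Runx1, its relative in blood and cartilage, had overlapping peaks in intron 3 of 5 (chr16:92644153-92644706 in Pi 1; 18.1 and 46.1), and no vector list had a peak in the gene. For Runx2 the vector lists held 1 peak in GFP OE 2 and 0 in GFP OE 1, THOC5 OE 1 and THOC5 OE 2. Both genes had 0 peaks in Ctrl 1 and Ctrl 2 and 1 each in Pi 1 and Pi 2, so the groups did not overlap but differed by a single peak. Sparc, a matrix protein of bone, had 1, 1, 0 and 1 peaks in Ctrl 1, Ctrl 2, Pi 1 and Pi 2. In the list for phosphate and calcification 4 of 27 matched genes had a peak and none was set apart. Slc20a1, the phosphate carrier Pit-1, had 1, 1, 1 and 2 peaks in Ctrl 1, Ctrl 2, Pi 1 and Pi 2. It held a Pi-only site in intron 2 of 10 (chr2:129199854-129200407; 67.7 and 74.1), in no vector list, beside a site in exon 8 of 11 in both Ctrl lists and Pi 2 (82.1, 85.1 and 89.9).

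Contractile genes were not set apart as genes. Of 34, 13 had a peak and 0 had one in both lists of 1 condition and neither of the other, where 3.17% and 3.64% of all genes were. Tagln and Mrtfb had a peak in 1 Ctrl list alone, and Tpm2 and Lmod1 in Pi 2 alone. Together the 13 genes held 14 and 27 peaks in Ctrl and 13 and 21 in Pi, ranges that overlap. Acta2, smooth muscle actin, had a peak in intron 2 of 8 in Ctrl 1, Ctrl 2 and Pi 2 (71.2, 80.6 and 73.7) and not in Pi 1. Matrix genes had a peak in 36 of 65 cases, with 1 set apart in each direction. Mia3, the receptor that loads collagen for export from the endoplasmic reticulum, had 3 and 2 peaks in Pi 1 and Pi 2 and 0 in both Ctrl lists, and its exon 4 of 27 was bound in both Pi lists (86.0 and 87.5). Mrc2, a receptor that takes up collagen, had overlapping Ctrl peaks in exon 4 of 30 (87.8 and 91.0) and none in Pi.

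Genes of RNA export were split in direction. Of 51, 28 had a peak. Of these, 3 had more peaks in both Pi lists than in either Ctrl list and 5 had fewer, where 4% and 6.72% of all genes did. At least 4 peaks over the 4 lists were found in 11 of the 28. Of the 3 genes with more peaks in Pi, Nup214 alone was among these 11, against all 5 of those with fewer. Among all 937 genes with at least 4 peaks, 3.52% had more in both Pi lists and 12.8% fewer. Xpo5, which exports precursor microRNAs, had 0, 0, 2 and 1 peaks in Ctrl 1, Ctrl 2, Pi 1 and Pi 2, and the last exon, 32 of 32, was bound in both Pi lists (85.8 and 85.9). Cse1l, which returns importin alpha to the cytoplasm, also had peaks in Pi alone, but in intron 5 in Pi 1 and exon 20 in Pi 2. Nup214, a pore protein on the cytoplasmic side, had 2, 3, 4 and 4 peaks. The members of this list that held more peaks in Ctrl were Thoc2 (4, 3, 1 and 2), the TREX-2 scaffold gene Mcm3ap (3, 4, 2 and 2), Nup98 (3, 3, 1 and 1), Nup188 (3, 3, 1 and 2) and Nup205 (2, 2, 1 and 1). Thoc2 thus had fewer peaks in Pi, together with the Pi-only site described above.

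In the list for translation, 16 of 50 genes had a peak, 3 were set apart by Pi and 2 by Ctrl (3.17% and 3.64% of all genes were). With lists cut to equal length, Rpl26 and Larp4b were no longer set apart, with 0 peaks left in Pi 2 and in Ctrl 2. Rpl26, a ribosomal protein, had overlapping Pi peaks in intron 2 of 3 (65.5 and 22.0), and Lars2, the mitochondrial leucyl-tRNA synthetase, in the last exon, 22 of 22 (83.6 and 94.2). Larp1, which binds mRNAs of the translation machinery, had its Pi peaks at different places, in intron 4 in Pi 1 and in introns 1 and 12 in Pi 2. Larp4b and Gcn1, a sensor of stalled ribosomes, had peaks in Ctrl alone, again at different places in the 2 lists. Mtor, the kinase that couples nutrients to protein synthesis, had 4, 4, 7 and 8 peaks in Ctrl 1, Ctrl 2, Pi 1 and Pi 2. Rictor, a subunit of 1 of its complexes, had 2, 2, 1 and 0, so Mtor and Rictor ran in opposite directions. Rptor, also in this list, had 3, 5, 4 and 5, ranges that overlap.

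Chromatin genes carried peaks almost throughout, 66 of 73. They held 111 and 187 peaks in Ctrl and 105 and 126 in Pi, and 4 had more in both Pi lists and 9 more in both Ctrl lists (4% and 6.72% of all genes did). Of the 66, 42 had at least 4 peaks over the 4 lists. Within these 42, Kmt2b and Bptf had more in both Pi lists. Kmt2c, Setd5, Brwd1, Chd1, Chd2, Ncor1 and Tet2 had more in both Ctrl lists. Among all 937 genes with at least 4 peaks, 3.52% had more in both Pi lists and 12.8% more in both Ctrl lists. Kmt2e and Brpf1 were bound in Pi alone, at different places in Pi 1 and Pi 2, and the methyltransferase gene Setd1b in Ctrl alone, at 1 shared place in exon 6 of 17 (60.7 and 74.4). Kdm2a was bound in Ctrl alone at different places. Of 39 ion channel genes 13 had a peak. Piezo1, a stretch-gated channel, had 1 and 3 peaks in Ctrl and none in Pi, with a shared place in exon 8 of 51 (95.5 and 96.4). Pkd2, a polycystin channel, had 1 peak in each Ctrl list, at different places. The cation channel genes ran both ways, with 0, 1, 2 and 2 peaks for Trpm4 and 2, 2, 0 and 1 for Trpm7.

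Few members of the remaining lists were set apart. Linkers of the cytoskeleton had a peak in 24 of 34 cases, with Syne3 alone set apart, by Ctrl (2.77 and 32.9; with lists cut to equal length its Ctrl 2 peak dropped out), and held 167 and 232 peaks in Ctrl and 127 and 200 in Pi. Of 48 matched mRNA decay genes 27 had a peak and 0 were set apart; Smg5 of nonsense-mediated decay had 2, 3, 1 and 0. No member was set apart among 10 Notch, 10 Wnt, 5 TGF-beta and BMP, 4 immediate early and 6 stress response genes with a peak, nor among 2 nuclear long noncoding RNAs. Of the genes listed for other cell types, 0 of 12 endothelial, 1 of 14 fibroblast and 0 of 13 leukocyte genes had a peak. Beside these counts stands the median difference of log2 peaks per 1000, Pi minus Ctrl, over genes with at least 4 peaks, which was -0.02 over all 937 such genes. It was below that in 8 of the 9 lists with 5 or more such genes, at -0.34 over 6 contractile, -0.3 over 11 mRNA decay, -0.22 over 11 export, -0.13 over 42 chromatin, -0.13 over 17 linker, -0.09 over 21 matrix, -0.09 over 9 ion channel and -0.08 over 6 translation genes. Over 5 Notch genes it was 0.52, with 3 of the 5 above 0. Among lists with fewer genes it was 0.76 over 3 Wnt genes and -0.43 over 2 TGF-beta and BMP genes, and the single gene of the phosphate, nuclear long noncoding RNA and stress response lists stood at 0.52, 0.15 and -0.64. Over all 937 genes 464 stood above 0. In those 8 lists, 2 of 6 contractile, 4 of 11 decay, 4 of 11 export and 19 of 42 chromatin genes did. So did 4 of 17 linker, 10 of 21 matrix, 3 of 9 ion channel and 3 of 6 translation genes. These medians were not tested.

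The number of peaks in a gene differed without overlap between conditions in 135 genes with more in both Pi lists (4% of 3378) and 227 with more in both Ctrl lists (6.72%). Herc2, a giant ubiquitin ligase, had 11 and 13 peaks in Ctrl and 16 in each Pi list. Ptprg, a receptor phosphatase, had 1 and 1 in Ctrl and 3 and 3 in Pi. Bptf had 3 and 5 in Ctrl and 6 and 7 in Pi. These join Mtor and Mia3 as the widest gaps towards Pi, with Fmnl2, a formin that builds actin filaments, and Fndc1 each at 0 and 0 in Ctrl and 2 and 2 in Pi. Kif13a (2, 3, 4 and 4) and Kank1 (2, 2, 3 and 4) complete the 10 with Nup214. With lists cut to equal length, Fmnl2 had 0 peaks in Pi 2, and Ptprg and Kif13a had 1, so that Fmnl2, Ptprg and Kif13a overlapped Ctrl.

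The gaps towards Ctrl were wider in number. Usp34, a deubiquitinase, had 10 and 12 peaks in Ctrl and 4 and 4 in Pi. Kmt2c, a histone H3 lysine methyltransferase that acts at enhancers, had 14 and 17 in Ctrl and 9 and 7 in Pi. Brwd1, a bromodomain protein, had 7 and 9 in Ctrl and 3 and 3 in Pi. The Ctrl list with the lowest count thus stood above both Pi lists in each. Akap13, an anchor of protein kinase A and activator of RhoA, had 7 and 10 against 3 and 4, and Zfp638 4 and 4 against 1 and 0. Cplane1 (8, 10, 5 and 5), Mycbp2 (16, 26, 12 and 14), Birc6 (12, 11, 9 and 9), Atrnl1 (10, 15, 5 and 8) and Myo5a (8, 11, 5 and 6) complete the 10. All 10 kept this order with lists cut to equal length. Per 1000 peaks of the list, Birc6 alone did not, at 4.61 and 2.29 in Ctrl 1 and Ctrl 2 against 3.4 and 2.39 in Pi 1 and Pi 2.

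**Figure D3:**
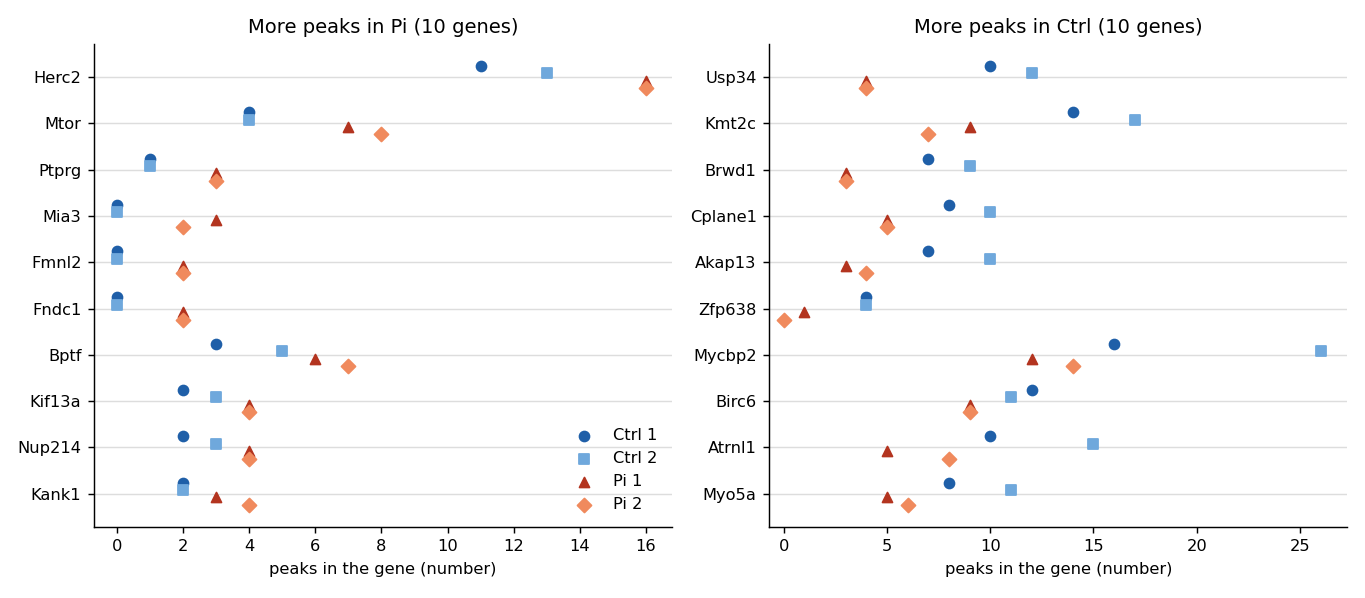
Number of peaks per gene (horizontal axis) in Ctrl 1, Ctrl 2, Pi 1 and Pi 2 for the 10 genes with the widest gap in each direction, rRNA peaks left out. Herc2 has 16 peaks in both Pi lists against 11 and 13 in Ctrl, and Usp34 has 4 in both Pi lists against 10 and 12.

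Among the 937 genes with at least 4 peaks over the 4 lists, 33 had more in both Pi lists (3.52%) and 120 more in both Ctrl lists (12.8%), and among the 705 with as many in cut lists 28 (3.97%) and 92 (13%). No gene passed a test of its number of peaks. In limma on log2 peaks per 1000 peaks of the list (0.5 added to each number), 0 of these 937 genes rose and 0 fell at a Benjamini-Hochberg adjusted p of 0.05 (0% each). At an unadjusted p under 0.05, 14 genes (1.49%) were higher and 26 (2.77%) lower in Pi, and the smallest adjusted p was 0.866. Zfp638 had a difference of -2.23 (SE 0.75, adjusted p = 0.866) on that scale, Usp34 -1.2 (SE 0.44, adjusted p = 0.927), Mia3 2.72 (SE 1.15, adjusted p = 0.927) and Mtor 0.98 (SE 0.47, adjusted p = 0.927), all from limma with n = 2 lists a condition. In lists cut to equal length limma called 7 genes higher and 10 lower of 705, all at an adjusted p of 0.0242. Each of these 17 genes had the same number of peaks in both lists of a condition, so its own spread was 0. Dennd4c and Rapgef2 had 0, 0, 2 and 2 peaks there, Ckap5, Gm35612 and Zfyve16 2, 2, 0 and 0, and Daam1, Kmt2b, Ninl, Psd3 and Qrich1 1, 1, 2 and 2. Fam193b and Zmym6 had 3, 3, 1 and 1, and Dpp8, Eml4, Pou6f1, Tet2 and Yme1l1 2, 2, 1 and 1. These 17 were named after their values were seen.

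Among the 546 sites of all 4 lists the order was much the same in each. Ranks correlated over sites with Spearman rho of 0.982 between the Ctrl lists, 0.968 between the Pi lists and 0.959 to 0.973 between Ctrl and Pi lists; the sites share libraries, and these values are a description. In limma on normal scores of the rank, 0 sites rose and 0 fell at an adjusted p of 0.05 (0% each). At an unadjusted p under 0.05, 25 sites (4.58%) ranked higher and 22 (4.03%) lower in Pi, and the smallest adjusted p was 0.235. Both Pi lists ranked above both Ctrl lists at 107 sites (19.6%) and below them at 105 (19.2%).

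The widest gaps upward were at sites of Gsn, Spen and Bend6. Ranks here are in percent of the 546 sites, 100 being the strongest. The site in intron 12 of 16 of Gsn, encoding the actin-severing protein gelsolin, stood at 41.2 and 37.3 in Ctrl 1 and Ctrl 2 and at 60.3 and 63.5 in Pi 1 and Pi 2 (limma adjusted p = 0.246). Spen, a corepressor in the Notch pathway, stood at 17.8 and 10.7 against 48.2 and 36.3 in intron 4 of 14 (limma adjusted p = 0.341). The promoter site of Bend6 stood at 9.71 and 5.86 against 29.1 and 24.4 (limma adjusted p = 0.299). None of these passed the threshold, although the groups did not overlap. Dync2h1 of the ciliary dynein, the potassium-chloride cotransporter gene Slc12a7, the mitochondrial chaperone gene Trap1, Rexo1 and Fryl made up the other 5, with mean gaps of 10.8 to 15.0.

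Downward, Mylk, Clca3a1 and Syne1 appeared with 2 sites each among the 8. Mylk, the kinase that phosphorylates myosin light chain to start contraction, stood lower in Pi at the 2 sites named here, which were chosen by that gap. Ranks of any other Mylk sites are not given here. In exon 16 of 32 (chr16:34921685-34922408) it stood at 77.5 and 77.0 in Ctrl and 55.7 and 54.0 in Pi (limma difference of normal scores -0.62, SE 0.06, adjusted p = 0.235). In exon 22 of 32 (chr16:34963406-34963959) it stood at 37.8 and 45.6 in Ctrl and 10.2 and 21.9 in Pi (limma adjusted p = 0.501). Mylk thus held its 7 peaks in each Pi list while both of these sites were lower in the order. Clca3a1, of the family of chloride channel accessory proteins, stood at 66.0 and 62.9 in Ctrl and 31.4 and 37.9 in Pi in intron 10 of 13, and at 59.0 and 59.3 against 38.2 and 40.1 in intron 5. Syne1, encoding the nuclear envelope linker nesprin-1, stood at 60.7 and 58.2 against 44.1 and 43.1 in exon 55 of 146, and at 15.6 and 19.0 against 5.04 and 5.77 in intron 6 of 54. Trps1, a transcription factor of cartilage and bone, stood at 36.7 and 41.3 against 21.9 and 17.2 in exon 2 of 8, and Lrba at 40.1 and 39.7 against 28.3 and 27.9 in exon 30 of 51. Adjusted p-values from limma for the sites of Clca3a1, Syne1, Trps1 and Lrba were 0.235 to 0.315.

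**Figure D4:**
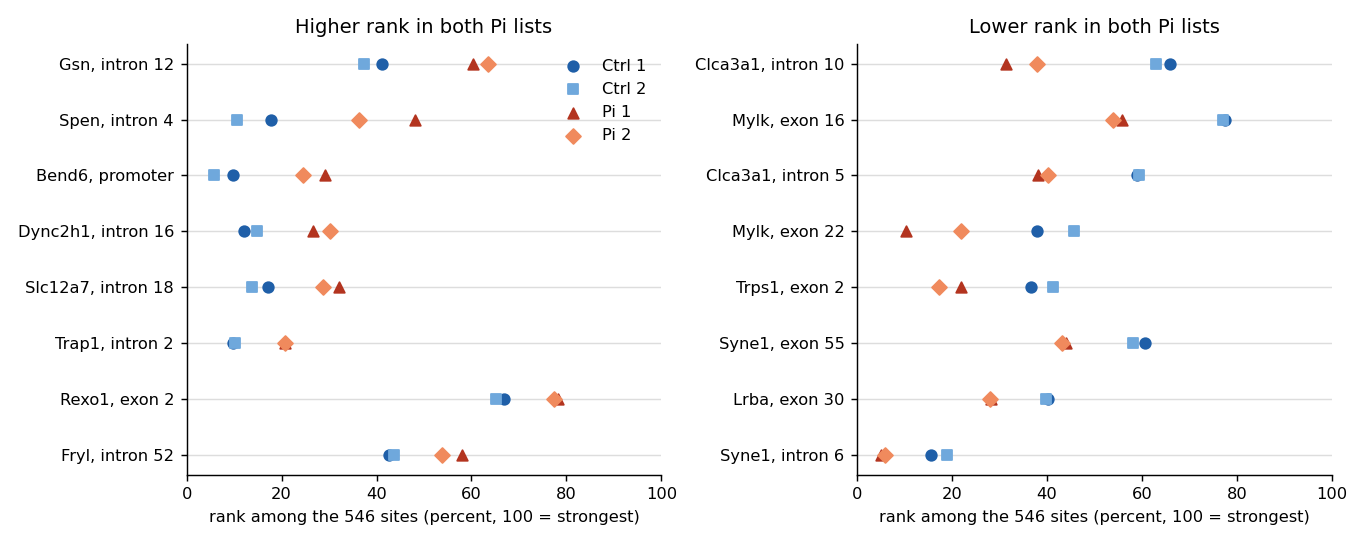
Rank of a site among the 546 sites of all 4 lists, in percent with 100 the strongest (horizontal axis), for the 8 sites with the widest gap in each direction; points are the 4 lists. The Gsn site stands at 60.3 and 63.5 in Pi against 41.2 and 37.3 in Ctrl, and both Mylk sites shown, chosen by their gap, stand lower in Pi. None passed the limma test.

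By class of peak, introns took a larger and exons a smaller share in both Pi lists than in either Ctrl list. Introns held 51.6% and 52.8% of peaks in Ctrl 1 and Ctrl 2 and 56.8% and 54.2% in Pi 1 and Pi 2, a mean of 52.2% ± 0.799 (SD, n = 2) against 55.5% ± 1.8; exact permutation p = 0.333, adjusted p = 0.611 over 11 values. Exons held 35.9% and 33.4% against 29.9% and 31.1% (exact permutation p = 0.333, adjusted p = 0.611). Intergenic peaks took 0.615% and 0.876% against 1.61% and 1.71%, and 0.615% and 0.855% against 1.17% and 1.2% without rRNA peaks. The groups do not overlap in any of these classes, and 0.333 is the smallest p the design allows. A bound gene held 1.98 and 2.23 peaks in Ctrl and 1.67 and 1.91 in Pi (exact permutation p = 0.333, adjusted p = 0.611). Bound genes numbered 1280 and 2093 in Ctrl and 1541 and 1912 in Pi, ranges that overlap (exact permutation p = 1).

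Peaks on repeats of the rRNA class were almost all in the Pi lists. They made up 0% and 0.0209% of peaks in Ctrl 1 and Ctrl 2 and 0.638% and 0.738% in Pi 1 and Pi 2 (exact permutation p = 0.333, adjusted p = 0.611), and none of the 4 vector lists, in the same medium, had one. Of the 30 merged sites with such a peak 17 were Pi-only, which is the whole difference between 217 and 200 sites. All but 2 of the 28 in Pi 2, and all 17 in Pi 1, were annotated as large subunit rRNA. They stood higher in Pi 2 (median percentile 73.8) than in Pi 1 (38.6). Genes with such a peak in an intron included Filip1l (94.1 and 99.2 in Pi 1 and Pi 2), the synaptic scaffold gene Gphn (64.8 and 95.2), the Polycomb cofactor gene Jarid2 (41.7 and 89.5) and Tmtc2 (28.8 and 63.4). In Pi 2 alone they also lay in Il31ra (76.0), the hyaluronan receptor gene Cd44 (43.7) and the Mediator kinase gene Cdk8 (99.2). RNA for these libraries was depleted of rRNA, per the labels' protocols, and reads were not analysed here, so the part of leftover rRNA in these peaks was not tested.

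**Figure D5:**
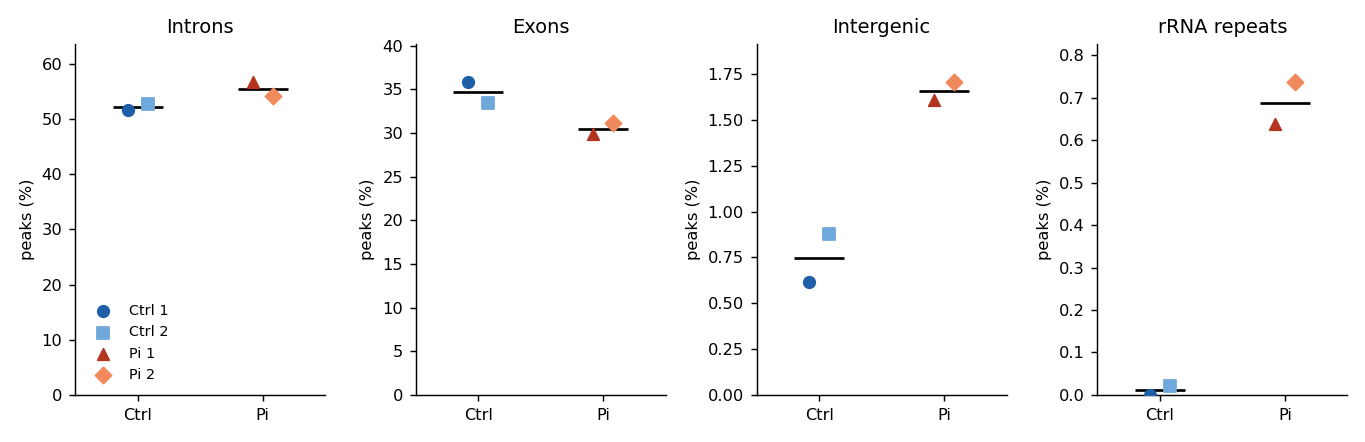
Share of peaks in introns, exons, intergenic sequence and rRNA repeats, in percent of each list (vertical axes, each from 0), for Ctrl 1, Ctrl 2, Pi 1 and Pi 2; short lines are means of the 2 lists. Introns, intergenic sequence and rRNA repeats are higher, and exons lower, in both Pi lists than in either Ctrl list.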

How the data were processed

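THOC5 immunoprecipitates of primary mouse vascular smooth muscle cells were compared, 2 lists of osteogenic medium against 2 of growth medium. FastQC, Bowtie2, MACS2, SAMtools and mm10 are named per the submitters' processing notes, without roles; peaks were annotated with HOMER per the file headers. The peak score was deposited by the authors; no source used here gives its scale or how inputs were treated. It served as a rank or percentile within a list, to cut lists to the shortest, and for a common floor. Of 13691 peaks naming a RefSeq transcript 13674 were matched to a gene (99.9%); the nearest gene differed in 39.5%. Depth is unknown beyond the score steps.

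Sites were peaks overlapping by 1 base or more. Tests were limma 3.58.1 (R 4.3.3; Benjamini-Hochberg, 0.05) and two-sided exact permutation of lists (Python 3.11.15, scipy 1.17.1). Limma was tested on simulated data. Named were, without rRNA peaks, 12 sites per direction by the lower percentile (6 with cut lists), 10 genes by gap in peaks, 8 sites by gap in rank, members of 19 gene lists (those of 1 condition, and up to 4 others) and genes with rRNA-repeat peaks; genes without a symbol were passed over, and some genes that meet these rules are not reported here. Promoter sites were chosen for their sequences, after their values were seen. Members and lists were chosen with earlier results of these data known. Promoter and microRNA sequences are from RefSeq (GRCm38.p6). Peak sequences were not used here.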

Additional observations from a re-analysis of the deposited data

How the results depend on the processing

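The counts of Pi-only and Ctrl-only sites and of sites in all 4 lists stayed within 1.5 times of the main count when lists were cut, rRNA peaks dropped, a common score floor set, 50% of both peaks or a 400 bp width required, or, added after seeing the data, peaks up to 500 bp apart merged. With only scores at or above the median of a list, which keeps fewer peaks, Pi-only sites were 112 and Ctrl-only sites 212, and Pi-only and Ctrl-only genes 50 and 64. Ctrl-only genes numbered 79 in cut lists, with or without rRNA peaks, and Pi-only genes 62 with introns left out. Limma on peaks per gene called 7 genes higher and 10 lower in Pi in cut lists, against 0 and 0, and 1 lower with introns left out; the cause of the last was not tested. With lists left out in turn, Pi-only sites ranged from 331 to 1711, Ctrl-only sites from 558 to 2563, sites of all remaining lists from 657 to 961, Pi-only genes from 161 to 599, Ctrl-only genes from 205 to 684, and calls of limma per gene from 0 to 1 higher and 0 to 2 lower; rank calls were 0 in each.

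The difference in share of peaks, Pi minus Ctrl, changed sign for 3′ UTR (-0.096 percentage points in cut lists, against 0.0566), non-coding exons (-0.0576 in cut lists and -0.31 above the median, against 0.00897) and promoters (-0.0202 above the median, against 0.143). Without 1 list each, which was added later, the ranges were -0.106 to 0.219 for 3′ UTR, -0.388 to 0.359 for 5′ UTR, -0.163 to 0.181 for non-coding exons, -0.0112 to 0.298 for promoters and -366 to 446 for bound genes per list. The cause was not tested. Shares of introns, exons, intergenic and rRNA peaks kept their sign in each alternative run. With the replicate block, limma called 0 sites and 0 genes in either direction; 20 genes were higher and 42 lower at an unadjusted p under 0.05. Only 2 pairs of numbers exist and the labels do not say that they pair samples; the smallest sign-flip p is 0.5. Depth is unknown, so a missing peak may be weak binding that was not detected.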
